A study of Mus musculus with 9 samples.

Results

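The regions described here were the 5 kb bins of the mouse genome that took part in contacts held near cohesin in every parental library and in no contact listed for H3K27ac. A bin counted as listed in a table when it held the midpoint of an interaction anchor, and an unlisted bin was one present in all 4 Smc1 tables of the parental strains and in 0 of the 4 H3K27ac tables. Of 191467 bins on chromosomes 1 to 19 that were in all 4 Smc1 tables, 30736 (16.1%) were unlisted in H3K27ac. A further 33805 were in exactly 1 H3K27ac table, and 126926 were in at least 2, called listed bins below. Any of the 10 tables held 413221 bins. The sets were thus chosen by the listing of read pairs in the 8 parental tables, so listing itself is described without a test.

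The contacts were measured by HiChIP, which joins proximity ligation of chromatin to immunoprecipitation, in sorted CD4+ CD8+ (double-positive) thymocytes. The groups were C57BL/6J (BL6) with an Smc1 antibody (2 libraries), NOD/ShiLtJ (NOD) with the Smc1 antibody (2 libraries), BL6 with an H3K27ac antibody (2 libraries), NOD with the H3K27ac antibody (2 libraries), and the (NOD/ShiLtJ X C57BL/6) F1 cross with the Smc1 antibody (1 library, no replicate, substrain of its BL6 parent not stated). No treatment, transgene or age was given in the labels. Sample titles number the Smc1 libraries of a strain as technical replicates of 1 biological replicate, so spread between them may be technical, and they number the H3K27ac libraries as separate biological replicates. The H3K27ac sample titles name Smc1, whereas the antibody field names H3K27Ac, and that field was followed. Names given by the authors to the tables state that NOD reads were mapped on the NOD genome and moved to BL6 coordinates, so strain and mapping genome cannot be told apart. The F1 library came as 2 tables, on each genome.

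Cohesin is a ring-shaped protein complex with Smc1 as a core subunit. It extrudes chromatin loops and is held up at sites bound by CTCF, and it also gathers at active promoters and enhancers. H3K27ac, acetylation of lysine 27 of histone H3, marks active promoters and enhancers. Double-positive thymocytes are the stage at which the T cell receptor alpha locus is rearranged and cells are selected, with Cd4, Cd8a, Rag1 and Rag2 active.

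Few unlisted bins held a gene start, and the promoters that lay in them had fewer CG dinucleotides than those in listed bins. The RefSeq promoter table (GRCm38.p6, 250 bases before to 50 after the start) placed 446 promoters of 425 coding genes in unlisted bins and 6094 promoters in listed bins. The median number of CG dinucleotides per promoter was 4 in unlisted bins, 13 in listed bins and 14 over all 20084 coding promoters at hand. Those promoters covered 16456 of 20661 coding genes. Median G+C content was 47.0%, 57.3% and 57% in the same order. At least 10 CG dinucleotides were present in 35.2% of promoters in unlisted bins and in 57.04% of those in listed bins. The sequences below are shown because they span that range: 3 of the promoters in unlisted bins with the most read pairs, and that of Rag2, a recombinase gene of double-positive thymocytes, from a listed bin. CG dinucleotides are in capitals, and each sequence reads 5′ to 3′ on the strand of its gene. Gja10, a connexin gene, lies at chr4:32602333-32602632 on the minus strand with 2 CG. Ssu72, encoding a phosphatase of RNA polymerase II, lies at chr4:155704565-155704864 on the plus strand with 11 CG. Pelp1, encoding a nuclear receptor coregulator, lies at chr11:70409982-70410281 on the minus strand with 30 CG. Rag2 lies at chr2:101624462-101624761 on the plus strand with 3 CG, so a listed bin can also hold a CG-poor promoter.
Gja10: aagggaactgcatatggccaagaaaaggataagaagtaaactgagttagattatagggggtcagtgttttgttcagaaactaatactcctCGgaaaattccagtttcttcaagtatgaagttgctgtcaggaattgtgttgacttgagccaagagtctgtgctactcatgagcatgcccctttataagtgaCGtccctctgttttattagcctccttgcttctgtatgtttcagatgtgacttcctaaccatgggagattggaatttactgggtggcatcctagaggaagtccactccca
Ssu72: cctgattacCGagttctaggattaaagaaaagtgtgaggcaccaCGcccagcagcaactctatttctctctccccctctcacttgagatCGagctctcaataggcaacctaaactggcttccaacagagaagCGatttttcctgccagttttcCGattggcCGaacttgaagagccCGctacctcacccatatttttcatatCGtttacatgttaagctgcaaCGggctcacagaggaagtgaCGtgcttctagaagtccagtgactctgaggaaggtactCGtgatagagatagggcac
Pelp1: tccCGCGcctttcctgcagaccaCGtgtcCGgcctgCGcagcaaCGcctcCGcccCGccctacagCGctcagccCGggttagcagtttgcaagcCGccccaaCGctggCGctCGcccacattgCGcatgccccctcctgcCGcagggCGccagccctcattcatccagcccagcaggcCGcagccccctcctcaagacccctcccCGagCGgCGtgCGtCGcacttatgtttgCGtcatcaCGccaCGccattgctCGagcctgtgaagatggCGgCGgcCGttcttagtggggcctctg
Rag2: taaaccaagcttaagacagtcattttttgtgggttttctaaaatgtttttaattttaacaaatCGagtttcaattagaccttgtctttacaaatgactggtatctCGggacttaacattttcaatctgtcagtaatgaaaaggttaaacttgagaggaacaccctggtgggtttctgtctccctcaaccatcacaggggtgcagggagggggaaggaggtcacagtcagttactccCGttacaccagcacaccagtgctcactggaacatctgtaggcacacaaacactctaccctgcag

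The Smc1 libraries are called BL6 1, BL6 2, NOD 1 and NOD 2 below, and the BL6 libraries were the deeper ones. The bin with the Gja10 promoter had 45 and 53 read pairs in BL6 1 and BL6 2 and 42 and 30 in NOD 1 and NOD 2. The Ssu72 bin had 58, 57, 22 and 13 in that order. Scaled to library totals (CPM), Gja10 had 21.5, 17.8, 23.4 and 18.2 and the strains overlapped, whereas Ssu72 had 27.8, 19.2, 12.2 and 7.87 and both BL6 libraries were higher. Such separation was seen at 34.1% of the unlisted bins deep enough for the strain test below. With 2 libraries against 2 it arises often without any strain difference, so it is not read as one. The Pelp1 bin had 20, 69, 24 and 6, and there the strains overlapped. In F1 these bins had 17 and 8, 2 and 2, and 11 and 11 read pairs on the BL6 and NOD genomes. All 3 lay beside a bin that was in an H3K27ac table. The bin of the Rag2 promoter had 13, 15, 14 and 8. Short motifs were searched on both strands of the promoters. GGGCGG, the letters of a GC box, which also count towards CG dinucleotides, was in 30.04% of promoters in unlisted bins, 47.7% of those in listed bins and 47.0% of all coding promoters. TATAAA, which does not overlap it, was in 21.3%, 10.2% and 12.7% in the same order. These are matches of letters in a window, not measured binding.

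Unlisted bins had fewer cohesin contacts than listed bins. The summed read pairs over the 4 Smc1 libraries had a median of 33 per unlisted bin (lowest 8, highest 564), 45 per bin in 1 H3K27ac table and 64 per listed bin. Per library the medians were 7 and 11 read pairs in BL6 1 and BL6 2 and 6 and 6 in NOD 1 and NOD 2 for unlisted bins, against 13, 22, 13 and 11 for listed bins. Reads at the deepest anchor of each bin had medians of 388, 508, 259 and 410 for unlisted and 591, 690, 368 and 522 for listed bins. Such a maximum can also rise with the number of interactions of a bin. The median unlisted bin entered 13 listed interactions and the median listed bin 23. Just outside the rule, 34712 bins were in 3 of the 4 Smc1 tables and in no H3K27ac table, with a median of 20 summed read pairs. All bins in 4 Smc1 tables were therefore divided into quartiles by summed read pairs (8 to 36, 36 to 54, 54 to 80, and 80 to 1876), which held 17616, 8083, 3812 and 1225 unlisted bins. The H3K27ac tables were shallower than the Smc1 tables, with 404335 to 1283569 read pairs against 1650836 to 2971209, and the deepest of them, BL6 2, set the count most: without it, 52303 bins were unlisted. Absence from a table means that no listed interaction had an anchor midpoint in the bin, and not an absence of the mark. Contacts may have had fewer than 2 read pairs, a q-value above 0.05 or a span beyond about 2 Mb. An anchor that covered the bin may also have had its midpoint in the next bin. The part of depth in the results was not tested beyond the quartiles. In sorted bulk cells, a contact in fewer cells and a weaker contact in each cell cannot be told apart.

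Chromosomes 17 and 19 were thinly covered in 2 H3K27ac libraries. Chromosome 17 held 1.68% and 1.26% of interactions in H3K27ac BL6 1 and NOD 1 and 4.82% and 4.80% in BL6 2 and NOD 2, and chromosome 19 held 0.799% and 0.537% against 2.93% and 2.53%. The results on number, gene context, span and partners were therefore also computed without those chromosomes, which left 28974 unlisted bins. Markers of double-positive thymocytes were checked one by one, although listing does not by itself show identity. The bins over Cd4, Cd8a, Cd8b1, Rag2, Cd3e and Bcl11b in all 4 Smc1 tables were all listed bins. Bcl11b alone had 10 of 10, Lck had 2 of 3, Rag1 had its single bin in 1 H3K27ac table, Ptcra had no bin in all 4 Smc1 tables, and Dntt had 1 unlisted and 1 listed bin.

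Unlisted bins lay outside genes more often than listed bins. A coding gene body was overlapped by 10556 unlisted bins, or 34.3% (exact 95% binomial interval 33.8% to 34.9%), and by 57.5% of listed bins (57.3% to 57.8%). Bins in 1 H3K27ac table stood between them at 45.3%, and 44.1% of all 479843 bins between the outermost listed bins of each chromosome overlapped a coding gene. Intervals here and below cover counting error only, and neighbouring bins are not independent. On 19 of 19 chromosomes the share was lower in unlisted bins. Without chromosomes 17 and 19 it was 34.0% and 57.2%.

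The gap narrowed with cohesin signal and remained in every quartile. From quartile 1 to quartile 4 of summed read pairs, the share of unlisted bins over coding genes was 32.1%, 35.0%, 39.9% and 44.4%. For listed bins it was 56.4%, 57.2%, 58.0% and 57.8%. The plot of gene overlap by quartile shows the lines approaching without meeting.

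**Figure D1:**
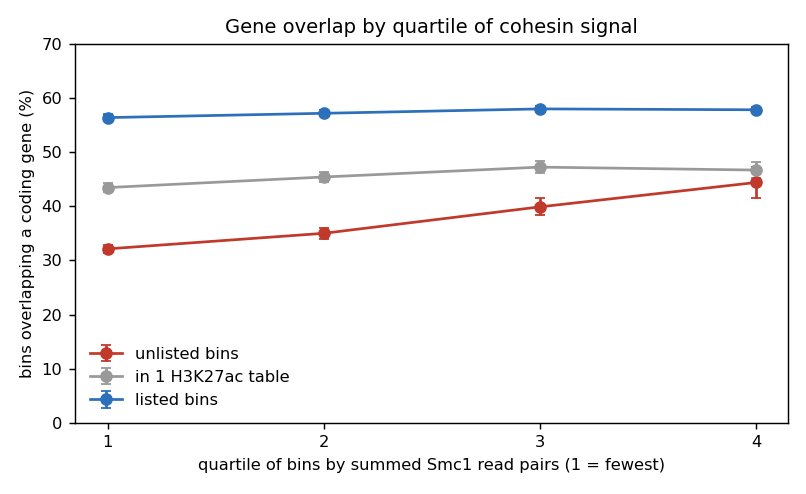
Share of bins overlapping a coding gene body (y axis, %) by quartile of summed Smc1 read pairs (x axis), for unlisted bins (red), bins in 1 H3K27ac table (grey) and listed bins (blue), with exact 95% binomial intervals. The red line rises from 32.1% to 44.4% and stays under the blue line, which lies between 56.4% and 58.0%.

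The starts and ends of genes were also less frequent in unlisted bins. A coding gene start lay in 419 of 29162 unlisted bins outside chromosome 18, for which promoters were not used here, or 1.44% (1.30% to 1.58%), against 4.23% (4.12% to 4.35%) of listed bins. Promoters were at hand for 16456 of the 20661 coding genes (79.6%). Chromosome 18 has 510 coding genes, so starts on other chromosomes were missed too, in either class. Either end of a coding gene lay in 3.27% of unlisted and 9.39% of listed bins. Counting all annotated genes in place of coding ones gave overlaps of 44.96% and 68.7%.

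Outside coding genes, unlisted bins were far from them. The median distance to the nearest coding gene, over bins overlapping none, was 170.1 kb for unlisted and 37.4 kb for listed bins. More than 100 kb separated 41.1% of unlisted bins from any coding gene, against 11.3% of listed bins. Gene deserts, at more than 500 kb from a coding gene, held 3749 unlisted bins (12.2%) and 966 listed bins (0.761%).

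The unlisted bins divided by what lay beside them. An adjacent bin was in an H3K27ac table for 15259 unlisted bins (49.6%), whereas 97.1% of listed bins had such a neighbour. Those 15259 overlapped coding genes at 41.1% and lay a median of 102 kb away when outside. The other 15477 had no H3K27ac listing on either side, overlapped coding genes at 27.7% and lay a median of 238 kb away. Unlisted bins were mostly solitary: 23424 (76.2%) had no unlisted neighbour, 7312 formed runs of 2 or more, and the 26757 runs reached at most 7 bins. The longest runs were at chr6:13150001-13185000 beside Vwde, with 186 summed read pairs, and at chr15:32640001-32675000 in Sema5a, a semaphorin gene of axon guidance, with 246.

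The share of unlisted bins differed between chromosomes. Chromosomes 18, 3 and 16 had the highest shares among bins in all 4 Smc1 tables, at 25.2%, 24.98% and 24.7%. Chromosomes 7, 11 and 9 had the lowest, at 7.98%, 9.20% and 9.21%. Coding genes per Mb were 5.82, 6.26 and 7.16 on the former and 14.3, 13.5 and 9.89 on the latter. Across the 19 chromosomes, Pearson's r between gene density and the share was -0.64 and Spearman's rho was -0.53, given as a description because all chromosomes come from the same libraries. Chromosome 19, thin in 2 H3K27ac libraries and in Smc1 NOD 2, had a share of 20.1% with 12.1 genes per Mb, and chromosome 17 had 16.0% with 11.5.

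**Figure D2:**
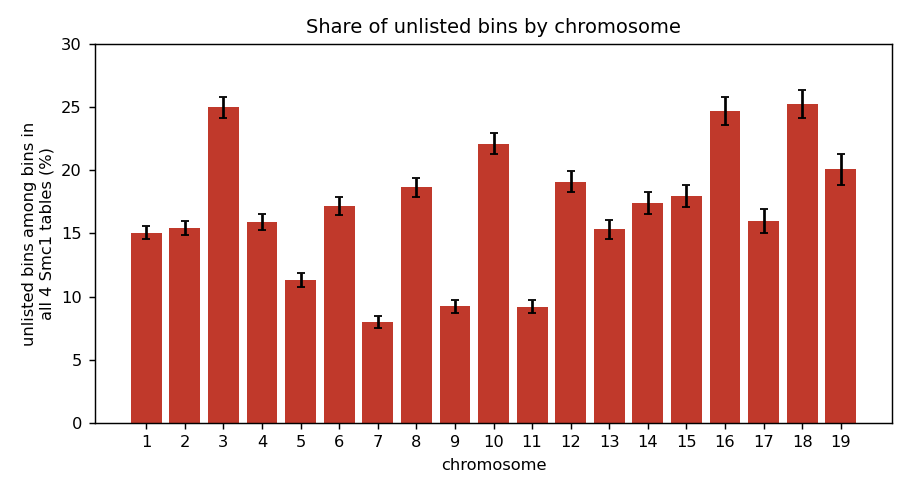
Unlisted bins as a share of bins in all 4 Smc1 tables (y axis, %) for chromosomes 1 to 19 (x axis), with exact 95% binomial intervals as error bars. Chromosomes 18, 3 and 16 stand at 24.7% to 25.2%, and chromosome 7 is lowest at 7.98%.

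Within chromosomes, some windows consisted mostly of unlisted bins, although most unlisted bins lay elsewhere. Of 1705 windows of 1 Mb with at least 50 bins in all 4 Smc1 tables, 110 had more than 50% unlisted bins. Together these held 4471 of the 30736 unlisted bins. At the other end, 790 windows had under 5%, and 108 had none. The window of chromosome 16 from 41000001 to 42000000, in Lsamp, had 57 unlisted bins of 57. Next came windows at Trhde, a peptidase of thyrotropin-releasing hormone (47 of 51, chromosome 10), at Ctnna3 and Lrrtm3 (45 of 50, chromosome 10), at Dcc, the netrin receptor of axon guidance (51 of 57, chromosome 18), and at Dpyd, an enzyme of pyrimidine breakdown (56 of 65, chromosome 3). None of these 5 windows held a listed bin. A window of chromosome 8 from 30000001 to 31000000 with no coding gene had 49 unlisted bins of 59.

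Long genes had a higher share of unlisted bins than shorter ones, although the shorter ones held more of them in all: 4042 lay in coding genes of at least 500 kb and 6768 in coding genes under 500 kb. The 5 coding genes with the most were Lsamp (113 of 121 bins in all 4 Smc1 tables), Macrod2 (98 of 163), Csmd1 (85 of 137), Nrxn3 (75 of 126) and Pcdh15 (70 of 96). Lsamp and Nrxn3 encode adhesion proteins of neurons, Csmd1 a membrane protein of brain with complement-control domains, Pcdh15 a cadherin of inner-ear hair cells, and Macrod2 an ADP-ribosyl hydrolase. Their gene bodies were 2197, 1998, 1643, 1612 and 1554 kb long, so the count of bins also follows length.

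Lsamp (chr16:39984254-42181679) shows how these bins behaved across libraries. With 5 kb added at each end, its 114 unlisted bins had 854 and 1340 read pairs in BL6 1 and BL6 2 and 666 and 726 in NOD 1 and NOD 2. Scaled to the total of each library, this was 409 and 451 CPM in BL6 and 370.3 and 439.8 in NOD, and the strains overlapped. In F1 it had 195 and 183 read pairs on the BL6 and NOD genomes. Of the contacts of these bins, 23.2% joined 2 unlisted bins of Lsamp, and the median span was 737 kb. The unlisted bins of Macrod2 had 378, 415, 326 and 422 CPM, and those of Csmd1 382, 416, 346 and 507. For Nrxn3 the values were 293, 346, 300.2 and 318, and for Pcdh15 245, 288, 242 and 230.2. The strains overlapped for Macrod2, Csmd1 and Nrxn3, whereas both BL6 values lay above both NOD values for Pcdh15.

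Not all long genes were of this kind. The 215 coding genes of at least 500 kb had 29.8% unlisted bins, and coding genes under 500 kb had 7.61%. Among the long genes, 37 of a list of neuronal adhesion and synapse genes had 49.2% and the other 178 had 24.6%. That list was chosen with earlier results of these data known. Robo2, an axon guidance receptor gene, had 27 unlisted bins of 27, as did Nav3, a neuron navigator gene, and Lrrc4c, encoding a netrin-G ligand, had 36 of 38. In contrast Sdk1, which encodes a cell adhesion protein, had 0 of 140, and the transcription factor genes Sox5, Zfhx3 and Foxp1 had 0 of 125, 0 of 96 and 0 of 72. Cdkal1, encoding a tRNA-modifying enzyme, had 0 of 83, and Dock2, a lymphocyte regulator of Rac, had 0 of 58. These long genes were chosen after their values were seen. The plot of bin classes over long genes sets both kinds side by side.

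**Figure D3:**
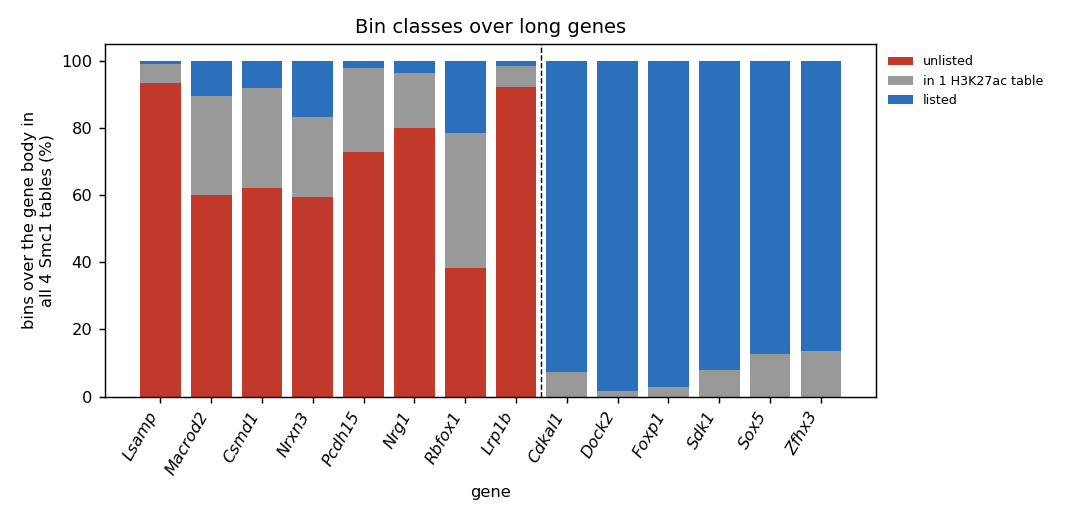
Bins over the gene body that are in all 4 Smc1 tables (y axis, % of the gene's bins) by class for the 8 genes with the most unlisted bins (left of the dashed line) and 6 genes of at least 500 kb with none (right). Unlisted bins (red) make up 93.4% of the bins of Lsamp and 38.4% of those of Rbfox1, and listed bins (blue) make up most bins of the genes on the right.

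Over all coding genes, 3399 of 20661 (16.5%) had an unlisted bin over the gene body. Of 1020 genes with at least 20 bins in all 4 Smc1 tables, 86 had more than 50% unlisted bins and 386 had none.

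T cell receptor signalling genes and thymocyte transcription factors had smaller shares of unlisted bins than all coding genes. Double-positive stage genes, with few bins, did not. For each list, bins over the gene or within 5 kb of it were counted, and over all coding genes 10.1% of such bins were unlisted and 74.3% were listed. T cell receptor signalling genes had 5 unlisted bins of 197 (2.54%), in 2 of 28 genes. These were Themis, a signalling protein required for thymocyte selection, with 3, and Ptprc, which encodes the phosphatase CD45, with 2. Thymocyte transcription factors had 4 of 178 (2.25%), with 1 bin each in Runx1, Tcf12, Gata3 and Lef1. Double-positive stage genes had 6 of 49 (12.2%), with 65.3% listed. Of the 6, 3 were those of Themis, which is in both lists, so this share rests largely on 1 gene. The others were at Tdrd5, Cd1d1, which presents lipids to natural killer T cells, and Dntt, which adds bases at receptor joints.

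The unlisted bins of Themis had 43 and 28 read pairs in BL6 1 and BL6 2 and 42 and 14 in NOD 1 and NOD 2. Those of Ptprc had 37, 71, 63 and 67, and in F1 42 on either genome. In CPM the strains overlapped at Themis, whereas Ptprc had 17.7 and 23.9 in BL6 and 35.0 and 40.6 in NOD, with both NOD libraries above both BL6 libraries. Strains were also separate, in either direction, at 34.1% of the single unlisted bins tested between strains, so separation at 1 gene says little.

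Genes of the cohesin machinery and of other cell types gave a range of shares. Cohesin and CTCF genes had 13 unlisted bins of 69 (18.8%). Of these 9 were in Stag1, which encodes a cohesin subunit, 2 in Nipbl, the cohesin loader, 1 in Esco1, a cohesin acetyltransferase, and 1 in Pds5b, a cohesin regulator. The Stag1 bins had 56, 100, 65 and 59 read pairs in BL6 1, BL6 2, NOD 1 and NOD 2. B cell genes had 10 of 167 (5.99%), 7 of them in Bank1, a B cell scaffold gene. Myeloid and dendritic genes had 2 of 81 (2.47%), natural killer genes 1 of 20, erythroid genes 4 of 22 and thymic epithelium genes 0 of 29. Markers of other cells were thus mostly in listed bins too, with 81.4% of bins at B cell genes and 89.7% at thymic epithelium genes against 86.3% at T cell receptor signalling genes.

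Developmental and gene-family lists spread widely. All 38 genes of the list of neuronal adhesion and synapse genes had an unlisted bin, with 1399 of 2885 bins (48.5%). This list, like the others, was chosen with earlier results of these data known, so its share is not independent support. The list also holds genes that are not neuronal adhesion or synapse genes, among them Macrod2, Fhit and Sgcz. Without those named the share was 47.2% (1223 of 2591 bins). Others, such as Rbfox1 (61 of 160 bins), remained, so that share is not of the named class alone. The median length of the 38 was 1139 kb against 17.5 kb for all coding genes. Developmental homeobox and Sox genes had 16 of 170 (9.41%), among them 4 in Meis2, 2 in Lhx9 and 1 each in Hoxa9 and Hoxd13. Housekeeping genes had 1 of 21, at Tbp. Gene families added after the values were seen had 55.2% (vomeronasal receptors, 134 bins), 30.4% (olfactory receptors, 883 bins), 7.74% (Zfp zinc finger genes, 1396 bins) and 1.38% (keratins, 145 bins). Receptor families hold closely similar copies, where short reads are hard to place, and 90 of 352 vomeronasal and 554 of 1104 olfactory receptor genes had a bin in all 4 Smc1 tables.

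The unlisted bins with the strongest cohesin contacts lay in or within 77.4 kb of a coding gene. By mean CPM, the highest 12, at least 100 kb apart, all lay beside a bin in an H3K27ac table, 6 overlapped a coding gene and 0 held a gene start. All 12 were in both F1 tables. Over all unlisted bins, 49.6% lay beside such a bin and 48.6% were in both F1 tables. Of the unlisted bins in quartile 4, 44.4% overlapped a coding gene, 2.53% held a start and 4.16% were in gene deserts. The gene context of the 12 was thus near that of quartile 4. The highest, chr7:16950001-16955000 in Pnmal1, a gene related to paraneoplastic antigens, had 136 and 118 read pairs in BL6 1 and BL6 2 and 196 and 114 in NOD 1 and NOD 2, or 70.7 ± 28.6 CPM (SD, n = 4), and 66 in F1 on either genome. The bin chr16:30375001-30380000 in Atp13a3, encoding a polyamine transporter, had 95, 91, 85 and 40. The bin chr8:71560001-71565000 in Nxnl1, a thioredoxin-like gene of photoreceptors, had 87, 94, 85 and 32. Scaled to library totals, Pnmal1 had 65.1, 39.7, 109 and 69.1 CPM, lowest in BL6 2 and highest in NOD 1. On that scale NOD 2 was the lowest library at Atp13a3 and Nxnl1, and the strains overlapped at all 3.

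The other 9 of these bins overlapped Atp5l (a subunit gene of ATP synthase), Neto2 (a kainate receptor partner) and Bcr (a gene known from its fusion with Abl1 in leukaemia), or lay nearest to Ppcdc, Chst15, Tmem170b, Lpp, E2f2 and Il20ra. Their summed read pairs ran from 184 at Bcr to 281 near Ppcdc. The median span of their contacts ran from 109 kb near E2f2, a cell cycle transcription factor gene, to 939 kb near Lpp.

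Among unlisted bins with no H3K27ac listing on either side, 6 bins chosen after their values were seen had the most contacts. The highest lay in Ep300, which encodes an acetyltransferase that deposits H3K27ac (chr15:81605001-81610000), with 68 and 45 read pairs in BL6 1 and BL6 2, 68 and 6 in NOD 1 and NOD 2, and 22 in F1 on either genome. The NOD libraries alone spanned the whole range at Ep300. A bin in Lhx9, a LIM homeobox gene (chr1:138835001-138840000), had 24, 63, 29 and 14. The other 4 lay near Fhit, Clec2m, Rap2b and Pitrm1, with 120 to 127 summed read pairs.

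The spans of contacts differed little in the median between unlisted and listed bins. The median distance between anchor midpoints was 812 kb for unlisted and 764 kb for listed bins in Smc1 BL6 1, and 721 and 693 kb in BL6 2. It was 570.4 and 578 kb in NOD 1, and 793 and 712 kb in NOD 2. Unlisted bins had the longer median in 3 of 4 libraries, and NOD 1 had the shortest medians of both classes. The mean log2 ratio of the medians, unlisted over listed, was 0.07 ± 0.07 (SD, n = 4), with p = 0.25 in an exact two-sided sign-flip permutation test over libraries, for which 0.125 is the smallest p that 4 libraries allow. The 4 libraries are technical repeats of 2 biological samples, so here and below neither an SD nor a p-value over them measures spread between animals. The mean ratio was 0.07 in each strain. In F1, which the rule did not use, the medians were 717 and 697 kb on the BL6 genome and 717 and 696 kb on the NOD genome.

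Within quartiles of summed read pairs the mean ratio was lower. Within quartile 1 of summed read pairs the mean log2 ratio was -0.11 (4 of 4 libraries negative, exact sign-flip permutation p = 0.125), and within quartiles 2, 3 and 4 it was -0.053, -0.022 and 0.01. In quartile 1 the medians were 822, 740.4, 569 and 815 kb for unlisted bins in BL6 1, BL6 2, NOD 1 and NOD 2, and 912, 794, 616 and 849.9 kb for listed bins. NOD 2, which had the largest pooled ratio, still had the longer median for unlisted bins in quartiles 2 and 3 (812 against 805 kb and 768 against 757 kb). F1 was negative in quartiles 1 to 3 on either genome, as the plot of span ratios shows. Depth was not equal within a quartile: in quartile 1 the median was 25 summed read pairs for unlisted and 29 for listed bins, and in quartile 4 it was 94 and 107. Weighted by read pairs, the pooled mean log2 ratio was 0.26 (exact sign-flip permutation p = 0.125).

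**Figure D4:**
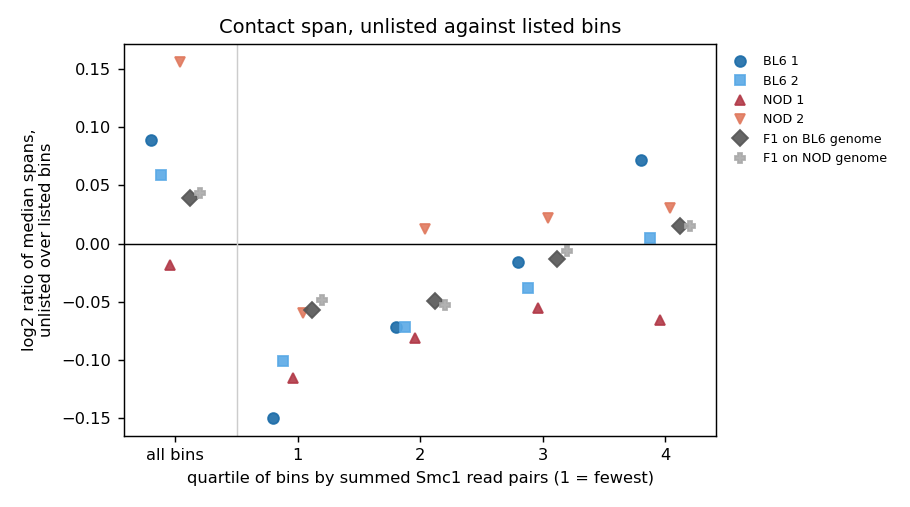
Log2 ratio of median contact spans, unlisted over listed bins (y axis), for all bins and for each quartile of summed Smc1 read pairs (x axis); each marker is 1 library or 1 table of F1, offset sideways to be seen. With all bins 3 of the 4 parental libraries lie above 0, and in quartile 1 all 4 lie below it, from -0.15 to -0.06.

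Unlisted bins had other unlisted bins as partners more often than listed bins did. Another unlisted bin was at the far end of 18.2% and 19.8% of their contacts in BL6 1 and BL6 2 and of 21.9% and 20.2% in NOD 1 and NOD 2, or 20.04 ± 1.53% (SD, n = 4). A listed bin was there in 26.5 ± 1.86%, a bin in 1 H3K27ac table in 14.4 ± 0.918% and a bin outside all 4 Smc1 tables in 39.0 ± 4.20%. From listed bins, 3.65 ± 0.150% of contacts reached an unlisted bin and 65.5 ± 2.87% another listed bin. The lowest share for unlisted bins, 18.2%, was above the highest for listed bins, 3.87%. The rule itself ties partners together, since an interaction in an H3K27ac table lists both of its bins. Neither of those bins can then be unlisted, so this gap is given as description only. With interactions of at least 3 read pairs, which also redefine the bins, the share was 10.0%. Unlisted bins carried 10.3% of all contact ends on bins in all 4 Smc1 tables.

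The surroundings of the classes differed as well. Contacts reach at most about 2 Mb, and within 2 Mb of an unlisted bin 30.4% of the contact ends on bins in all 4 Smc1 tables lay in unlisted bins, against 5.81% around listed bins, with bins weighted by their contacts. Counting only partners in all 4 Smc1 tables, unlisted bins met unlisted bins in 32.9 ± 0.754% of contacts and listed bins did so in 4.66 ± 0.150% (SD, n = 4). Both values lay within 3 percentage points of the surroundings.

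**Figure D5:**
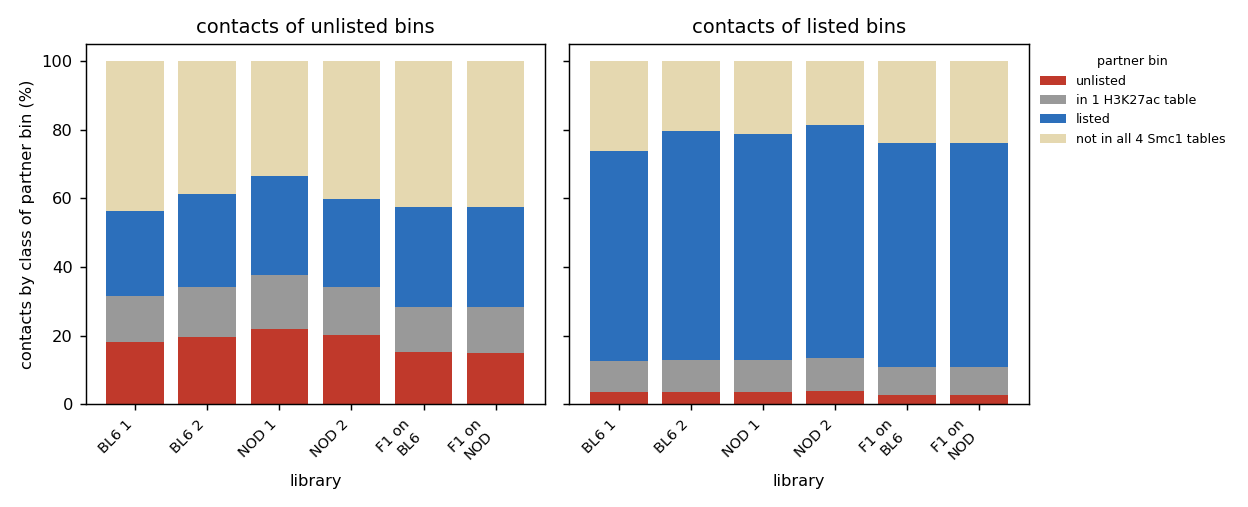
Contacts of unlisted bins (left) and of listed bins (right) by the class of the partner bin (y axis, % of contacts) in the 4 parental Smc1 libraries and in F1 on either genome (x axis). Unlisted partners (red) make up 18.2% to 21.9% on the left and 3.55% to 3.87% on the right in the parental libraries.

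The F1 library gave the same order with lower shares. Unlisted partners made up 15.2% and 14.9% of contacts of unlisted bins on the BL6 and NOD genomes, and 2.88% of those of listed bins on either genome. Listed partners made up 29.2% and 29.3% of contacts of unlisted bins.

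Contacts between unlisted bins were shorter than contacts from unlisted to listed bins. The medians were 785 against 911 kb in BL6 1, 677 against 808 kb in BL6 2, 509.6 against 671 kb in NOD 1 and 768 against 853 kb in NOD 2. The former were shorter in all 4, with means of 685 ± 126 kb and 811 ± 103 kb (SD, n = 4), although the ranges over libraries overlapped. In F1 they were 656 against 802 kb and 662 against 801 kb. Contacts between listed bins had a mean median of 682 ± 69.3 kb.

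Few single contacts of unlisted bins recurred in every library. Pairs of 5 kb bins in all 4 Smc1 tables numbered 2 between unlisted bins, 25 between an unlisted and a listed bin and 668 between listed bins. These numbers were not scaled to the contacts of each kind or to depth. In BL6 1, for example, unlisted bins had 103567 contacts, 18.2% of them with unlisted bins. Listed bins there had 717585 contacts, 61.3% of them with listed bins. A bin in Usp3, a histone deubiquitinase gene (chr9:66580001-66585000), met a bin 30 kb away outside the gene with 6, 5, 5 and 5 read pairs in BL6 1, BL6 2, NOD 1 and NOD 2. A bin near Anxa3, an annexin gene, met a bin in Bmp2k, a kinase gene of chromosome 5, over 180 kb, with 4, 4, 6 and 5. These counts varied little over libraries, and all were near the listing limit of 2.

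Of the 25 pairs with a listed bin, the strongest joined Pnmal1 to Ppp5c, a phosphatase gene, over 50 kb with 34, 22, 47 and 19 read pairs. A bin near Stard7 met Astl with 10, 10, 26 and 9, and a bin near Chst15 met one near Oat over 245 kb with 18, 5, 8 and 11. A bin near Tmem170b met one near Nedd9 over 270 kb with 11, 15, 19 and 3. The listed bin beside Cd69, an early activation marker of T cells that is also induced during thymic selection, met the unlisted bin beside Clec2m, a C-type lectin gene of the same cluster, over 55 kb with 9, 13, 15 and 4. NOD 1 was the highest library in 4 of these 5 pairs, all except that near Chst15.

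Unlisted bins were found again in F1 less often than listed bins. On the BL6 genome 51.5% (50.9% to 52.0%) and on the NOD genome 51.8% (51.2% to 52.3%) of unlisted bins were in the F1 table, 48.6% in both and 45.3% in neither. For listed bins the shares were 78.5% and 78.8%. On the BL6 genome, unlisted bins of quartiles 1 to 4 were in F1 at 44.1%, 56.4%, 67.0% and 76.6%, and listed bins at 61.8%, 72.1%, 80.0% and 89.0%, so the gap was present within each quartile. Of the bins in 3 of 4 Smc1 tables and no H3K27ac table, 36.9% were in F1. The F1 library was a single one, so no test was made.

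Between strains, read pairs at unlisted bins did not pass the test. Of 30736 unlisted bins 10849 (35.3%) had enough read pairs to be tested, and edgeR's quasi-likelihood test with Benjamini-Hochberg adjustment called 0 of them. Over all 164692 bins tested it also called 0%. At an unadjusted p under 0.05 there were 206 unlisted bins (1.90%) and 4873 bins in all (2.96%). The libraries of the strains did not overlap at 3696 of the tested unlisted bins (34.1%), in either direction. With 2 libraries against 2, such separation arises often without a strain difference, and the same share over all tested bins was not counted. The median log2 fold change, NOD over BL6, was -0.01 over tested unlisted bins and -0.05 over all tested bins. The rule had kept only bins with at least 2 read pairs in each of these libraries, so bins missing in 1 strain were outside the test and the shares of unlisted and of all bins are not comparable. The same fit called no change planted in simulated counts, so a count of 0 says little about differences at single bins. DESeq2 called 1 unlisted bin and 666 bins in all.

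That bin (chr1:7325001-7330000) lay 151 kb from its nearest coding gene, Pcmtd1, and had 2 and 6 read pairs in BL6 1 and BL6 2, 28 and 30 in NOD 1 and NOD 2, and 3 in F1 on either genome. Both NOD libraries were above both BL6 libraries, and F1 was near BL6. Its log2 fold change was 3.38 ± 0.80 (SE, edgeR adjusted p = 1.00) or 3.43 ± 0.91 (SE, DESeq2 adjusted p = 0.0409). Other bins with the smallest p-values, chosen after these were seen, had an edgeR adjusted p of 1.00. A bin in Shoc1, a meiotic recombination gene, had 3, 5, 32 and 20 read pairs in the same order and 11 in F1 on either genome. A bin 2.38 kb from Klra3, a Ly49 receptor gene with near-identical copies whose reads may be shared, had 4, 6, 25 and 32. A bin in Slc22a6, an organic anion transporter gene, had 38, 66, 3 and 6, with both BL6 libraries above both NOD libraries.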

How the data were processed

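The deposited tables listed interactions with counts of read pairs and of reads per anchor, not normalized, beside a q-value and p-value per interaction, per the file headers. Tools named in the submitters' processing notes are MACS, HiC-Pro and Juicer 1.7.6, on build GRCm38. Each of the 10 tables (9 libraries) listed interactions of at least 2 read pairs, a q-value up to 0.05 and up to about 2 Mb, as checked on the values. All were used here, each counting once per bin touched.

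Gene positions came from RefSeq GRCm38.p6 (20661 coding and 47038 genes in all on chromosomes 1 to 19), without strand, and starts from its promoter table. Intervals are exact binomial (Clopper-Pearson, 95%). Read pairs per bin were compared between strains with edgeR 4.0.16 in R 4.3.3 (quasi-likelihood, TMM, robust, default filter, Benjamini-Hochberg over all bins, threshold 0.05) and with DESeq2 1.42.0, tested on simulated data. Other values used Python 3.11.15 with pandas 2.3.3, numpy 2.4.6 and scipy 1.17.1.

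Members and gene lists were chosen with earlier results of these data known. Named bins were the 12 with the highest mean CPM (read pairs over library total), up to 5 bin pairs of each kind, the 5 genes with most unlisted bins, and up to 4 genes per list. Bin sequences were not analysed here. A marker gene of the list is not reported here.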

Additional observations from a re-analysis of the deposited data

How the results depend on the processing

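The lower gene overlap of unlisted bins kept its direction under every alternative run. The difference from listed bins, 23.2 percentage points, was 15.8 with interactions of at least 3 read pairs, 29.6 with 10 kb bins, 29.9 when neighbouring bins also had to lack H3K27ac, 27.5 against bins in all 4 H3K27ac tables, and 19.7 to 24.7 with 1 library left out. The number of unlisted bins was 13685 with at least 3 read pairs, 15477 with the neighbour rule, and 33666 to 52303 with 1 library left out, highest without H3K27ac BL6 2. The span ratio kept its sign with 1 library left out (0.0040 to 0.11) and reversed in quartiles 1, 2 and 3 of summed read pairs (-0.11, -0.053 and -0.022). It was 0.26 weighted by read pairs and 0.011 with at least 3 read pairs. The share of unlisted partners, 20.04%, was 10.0% with at least 3 read pairs, 29.1% with 10 kb bins, 18.3% with the neighbour rule and 19.8% to 28.1% with 1 library left out. The cause of these shifts was not tested, though each rule changes which bins are unlisted. Without chromosomes 17 and 19, chosen after seeing the data, the values were 23.3 points, 0.07 and 20.3%.

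The strain test called 0 unlisted bins under every alternative except DESeq2 (1), and 0 to 0 with 1 library left out, where the lone library of a strain is assumed to vary like the other strain. Over all bins it called 240 with no filter on low counts, 666 with DESeq2, 121 and 37 without BL6 1 and BL6 2, and 125 and 119 without NOD 1 and NOD 2. Same-numbered Smc1 libraries of the strains did not deviate together (r = 0.0607 over 164692 bins), so the numbers give no pairing, and a replicate block gave 0 calls, with 104 unlisted bins at an unadjusted p under 0.05.

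Between 58.3% and 72.4% of interactions in a table rested on 2 read pairs, so presence in a table is close to the limit of depth for many bins.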
